A study of Mus musculus with 4 samples.

Results

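The antioxidant and Nrf2 response genes examined here are 38 mouse genes, chosen by name for their role in the handling of reactive oxygen species, out of 20660 genes that could be named on the array. They comprise the transcription factor Nrf2 and its regulators, the haem oxygenases and the quinone reductase Nqo1, the enzymes of glutathione supply, the superoxide dismutases and catalase, glutathione peroxidases, peroxiredoxins, the thioredoxin system, glutathione S-transferases, ferritin and Oxr1. The list names genes by role and applies no threshold to any measured value. All 38 had a probe, all 38 were well above background on every array, and all 38 were tested among 16150 genes.

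The mRNA of whole brain from offspring at postnatal day 1 was hybridized to 4 one-color arrays, which are called Sham male and Sham female for offspring of vehicle-treated dams and TiO2-H male and TiO2-H female for offspring of dams given nanoparticles. Every dam was a pregnant C57BL/6J mouse that received 25 μL into the trachea. In the TiO2-H groups this liquid was a suspension of titanium dioxide nanoparticles (TiO2-NP) holding 100 μg per mouse (the labels write the suspension as 4 μg/L and the methods as 4 μg/μL, and only the latter gives this dose), and in the Sham groups it was the vehicle, obtained by removing the particles from such a suspension. The day of exposure is given as gestational day 10.5, and other labels of the same samples give day 14. Each array carried 1 RNA pool, made of 2 offspring per dam from 5 Sham or 6 TiO2-H dams, so that the spread between single offspring cannot be seen.

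Nrf2, encoded by Nfe2l2, is a transcription factor that is held in the cytoplasm and led to degradation by Keap1. When oxidants or electrophiles modify cysteines of Keap1, Nrf2 accumulates, enters the nucleus, pairs with small Maf proteins and binds the antioxidant response element in the promoters of its target genes. These targets include Hmox1, Nqo1, the subunits of glutamate-cysteine ligase, the cystine carrier Slc7a11, Txnrd1 and Srxn1, and their mRNAs are widely read as a sign of an oxidant challenge. In brain the response is known to be stronger in astrocytes than in neurons. TiO2-NP have been linked with oxidative stress in the brain, and the comparison here asks whether these mRNAs differed in newborn brain after prenatal exposure.

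The promoters were searched first for the core of the antioxidant response element, TGACNNNGC, on both strands. A RefSeq table of build GRCm38.p6 gave the 250 bases before and 50 bases after the start site for 31 of the 38 genes, but not for Hmox1, Gclc, Gsr, Sod3, Prdx6, Gsta4 and Oxr1. The core was present in 7 of the 31 (22.6%), against 13.99% of 27025 genes. The stretches below are shown because they hold this core, which is in capitals with 10 bases on each side, 5′ to 3′ on the strand of the gene. Where the core lies on the opposite strand it reads as GCNNNGTCA.
Nfe2l2 (chr2:75704885-75704913, minus strand): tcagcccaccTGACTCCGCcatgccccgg
Gclm (chr3:122245413-122245441, plus strand): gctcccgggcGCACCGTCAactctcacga
G6pdx (chrX:74428919-74428947, minus strand): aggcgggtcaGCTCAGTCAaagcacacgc
Sod1 (chr16:90220696-90220724, plus strand): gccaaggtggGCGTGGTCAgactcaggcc
Prdx1 (chr4:116685456-116685484, plus strand): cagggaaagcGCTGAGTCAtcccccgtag
Srxn1 (chr2:152105542-152105570, plus strand): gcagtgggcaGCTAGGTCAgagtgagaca
Txnrd1 (chr10:82859104-82859132, plus strand): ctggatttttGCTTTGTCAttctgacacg

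The core began 240 bases before the start site in Nfe2l2 and 28 bases after it in Srxn1, with the other 5 between these positions. In Prdx1 alone the match also held TGANTCA, the motif of AP-1 factors. With the shorter core TGANNNNGC, 12 of the 31 genes held a match (38.7%), against 45.0% of all genes. The Nrf2 targets Nqo1 and Slc7a11 had a window but no match to TGACNNNGC in it. A match describes letters in this window only and does not mark a gene as an Nrf2 target, and a gene without one may carry its element elsewhere.

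The brightness of a spot is given below as relative signal, which is the processed signal divided by the 75th percentile of its array, and a log2 difference of 1 is a doubling of it. Levels of different genes are not compared, since each probe has its own brightness. The difference is the mean log2 relative signal of the 2 TiO2-H arrays minus that of the 2 Sham arrays, fitted with limma and followed by its 95% interval. With 2 arrays on each side, which are pools of different sex, the spread behind each interval holds the sex difference as well as the error of the array. The methods give 5 Sham and 6 TiO2-H dams in all for this experiment, so both pools of an exposure came from the same dams. The spread between dams is therefore not measured by the intervals and p-values below.

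No antioxidant or Nrf2 response gene passed the test. The lowest limma adjusted p over the 38 was 0.260, and 0 of 16150 genes (0%) had an adjusted p under 0.05. At an unadjusted p under 0.05 there were 4 of the 38 (10.5%), against 17.3% of all genes tested. These were Txnip, which was higher in TiO2-H, and Nfe2l2, Nqo1 and Gstm1, which were lower.

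The differences were small for every one of the 38 genes. They ran from -0.21 (Nqo1) to 0.27 (Txnip) on the log2 scale, with a median of -0.04 against 0.003 for all genes. The 95% interval of each of the 38 lay inside a 1.5-fold change in either direction, as it did for 85.8% of all genes. The bound farthest from 0 was the upper bound of Txnip, 0.49, which is a 1.40-fold change. Txnip alone reached past 1.5-fold under 4 alternatives, with an upper bound of 0.62 without scaling and 0.63 without the array labelled TiO2-H female, and of 0.59 without the Sham male array and with sex crossed within TiO2-H as a block. The half-width of the interval ranged from 0.10 to 0.26 among the 38, with a median of 0.13. These intervals are for single genes without adjustment, and are no limit of detection for the adjusted test. Differences farther from 0 than 0.13, such as those of Txnip and Nqo1, did not pass that test either.

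**Figure D1:**
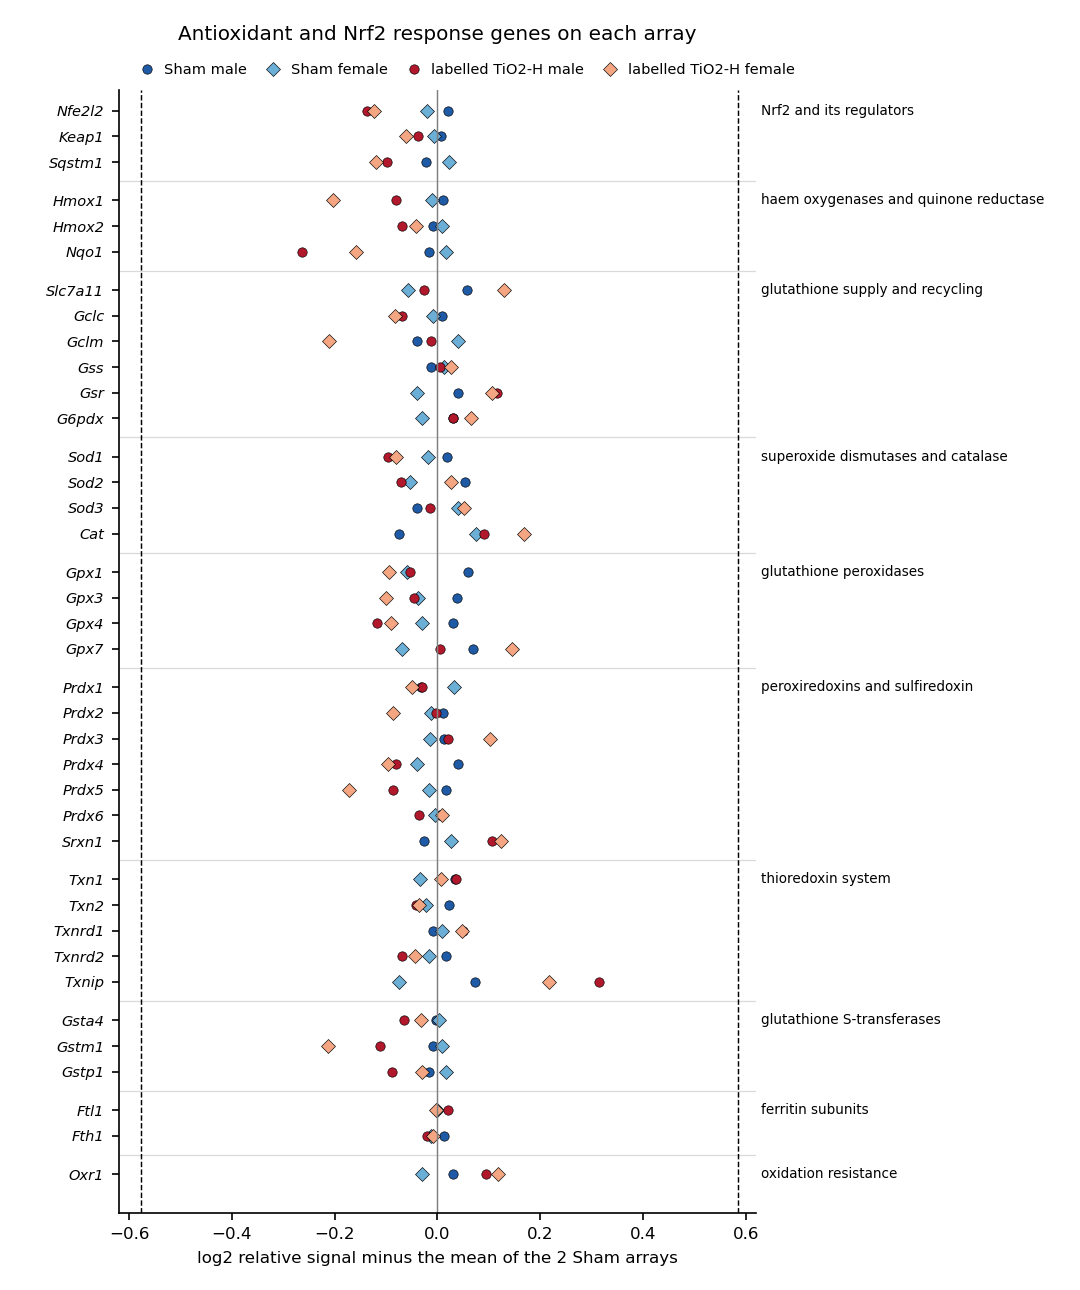
Log2 relative signal of the 38 genes on each of the 4 arrays, minus the mean of the 2 Sham arrays (blue, Sham; red and orange, arrays labelled TiO2-H male and TiO2-H female; 1 pool per array). The dashed lines mark 1.5-fold and 0.67-fold. All points lie between the lines, and Txnip, on the right, and Nqo1, on the left, lie farthest from the Sham mean.

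Both TiO2-H arrays lay above both Sham arrays for 8 of the 38 genes (21.1%), against 28.1% of all genes tested. Both lay below for 17 of the 38 (44.7%), against 27.5% of all genes, and the arrays overlapped for 13. These directions rest on the scaling between arrays. Without it the median of all genes was 0.12 and that of the 38 genes 0.07, with 25 of them above without overlap (61.4% of all genes) and 1 below (6.33% of all genes). The scaling takes the same amount from every gene of an array, so leaving it out cannot move the 38 relative to all genes. On either scale the median of the 38 minus that of all genes is thus the same, -0.04. Below the median of all genes lay 24 of the 38. The gap between the medians was -0.03 with quantile normalization, with 23 of the 38 below. Without the filter on dim genes it was -0.001, with 19 of the 38 below. There the median of the 38 was unchanged at -0.04, and that of all genes fell from 0.003 to -0.04. The genes added had cleared background on no array. Their values were set to at least the lowest signal well above background on each array, so this change does not come from the 38.

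Nrf2 itself and the proteins that set its level were measured first. The relative signal of Nfe2l2 (NM_010902) was 0.947 in Sham male, 0.921 in Sham female, 0.849 in the pool labelled TiO2-H male and 0.857 in the pool labelled TiO2-H female. Both TiO2-H values were below both Sham values, by more than the gap within either pair. The difference was -0.13 (-0.24 to -0.02), with an unadjusted p of 0.0318 and a limma adjusted p of 0.264, and without scaling it was -0.01.

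Keap1 (NM_016679), the adaptor that presents Nrf2 to the ubiquitin ligase, had relative signals of 7.58 (male) and 7.50 (female) in Sham and 7.34 (labelled male) and 7.23 (labelled female) in TiO2-H. Pairs of values below keep this order. Sqstm1 (NM_011018), which encodes p62, an autophagy receptor that binds Keap1 and is itself an Nrf2 target, had 5.99 and 6.18 in Sham and 5.68 and 5.60 in TiO2-H. The TiO2-H arrays lay below the Sham arrays for both genes. The differences were -0.05 (-0.15 to 0.06) for Keap1 and -0.11 (-0.23 to 0.01) for Sqstm1, and neither passed the test, with limma adjusted p of 0.494 and 0.298. Both were slightly above 0 without scaling, at 0.07 and 0.007.

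Hmox1, Hmox2 and Nqo1 came next, of which Hmox1 and Nqo1 are classical Nrf2 targets. Hmox1 (NM_010442) encodes the inducible haem oxygenase, which breaks haem down to biliverdin, iron and carbon monoxide. Its relative signal was 1.09 in Sham male, 1.08 in Sham female, 1.02 in the pool labelled TiO2-H male and 0.941 in the pool labelled TiO2-H female. The highest TiO2-H value was below the lowest Sham value, while the spread between the TiO2-H arrays was the wider of the pairs. The difference was -0.14 (-0.32 to 0.03), with a limma adjusted p of 0.326. A second, dimmer probe of Hmox1 gave 0.194 and 0.198 in Sham and 0.213 and 0.181 in TiO2-H, which overlap, and a difference of 0.006.

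Nqo1 (NM_008706), the quinone reductase that is often used as the reporter of Nrf2 activity, had a relative signal of 0.253 in Sham male, 0.259 in Sham female, 0.213 in the pool labelled TiO2-H male and 0.229 in the pool labelled TiO2-H female. It had the lowest difference of the 38 genes, -0.21 (-0.37 to -0.05), a change in level of -13.6%. The unadjusted p was 0.0230 and the limma adjusted p 0.260. The gap between exposures was wider than the gap within either pair, and the difference stayed below 0 without scaling, at -0.09. Hmox2 (NM_010443), the haem oxygenase that is made constitutively in neurons, had 5.85 and 5.91 in Sham and 5.61 and 5.71 in TiO2-H. Its difference of -0.06 (-0.16 to 0.05) did not pass the test (limma adjusted p = 0.463), although the arrays did not overlap.

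Glutathione is made from cysteine by glutamate-cysteine ligase and glutathione synthetase, and is kept reduced with NADPH. Slc7a11 (NM_011990), the cystine carrier, had relative signals of 0.128 in Sham male, 0.118 in Sham female, 0.121 in the pool labelled TiO2-H male and 0.134 in the pool labelled TiO2-H female. The pairs overlapped, and the difference was 0.05 (-0.19 to 0.29). Gclc (NM_010295), the catalytic subunit of the ligase, had 3.71 and 3.67 in Sham and 3.52 and 3.49 in TiO2-H, without overlap. Its difference was -0.08 (-0.18 to 0.03), with a limma adjusted p of 0.358.

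Gclm (NM_008129), the modifier subunit of the same enzyme, had 0.654 and 0.692 in Sham, 0.667 on the array labelled TiO2-H male and 0.581 on the array labelled TiO2-H female. Only the last array lay apart from the others, and the difference was -0.11 (-0.37 to 0.15), the widest interval of the 38 genes. Glutathione synthetase Gss ranged from 0.383 to 0.394 over the 4 arrays. Glutathione reductase Gsr (NM_010344) had 6.22 and 5.89 in Sham and 6.56 and 6.51 in TiO2-H. G6pdx (NM_008062), the first enzyme of the pentose phosphate pathway and a source of NADPH, had 7.64 and 7.32 in Sham and 7.64 and 7.83 in TiO2-H. The TiO2-H arrays of Gsr lay above the Sham arrays, with a difference of 0.11 (-0.02 to 0.25) and a limma adjusted p of 0.327. For G6pdx the array labelled TiO2-H male exceeded the Sham male array only beyond the printed digits, and the difference was 0.05 (-0.08 to 0.18).

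**Figure D2:**
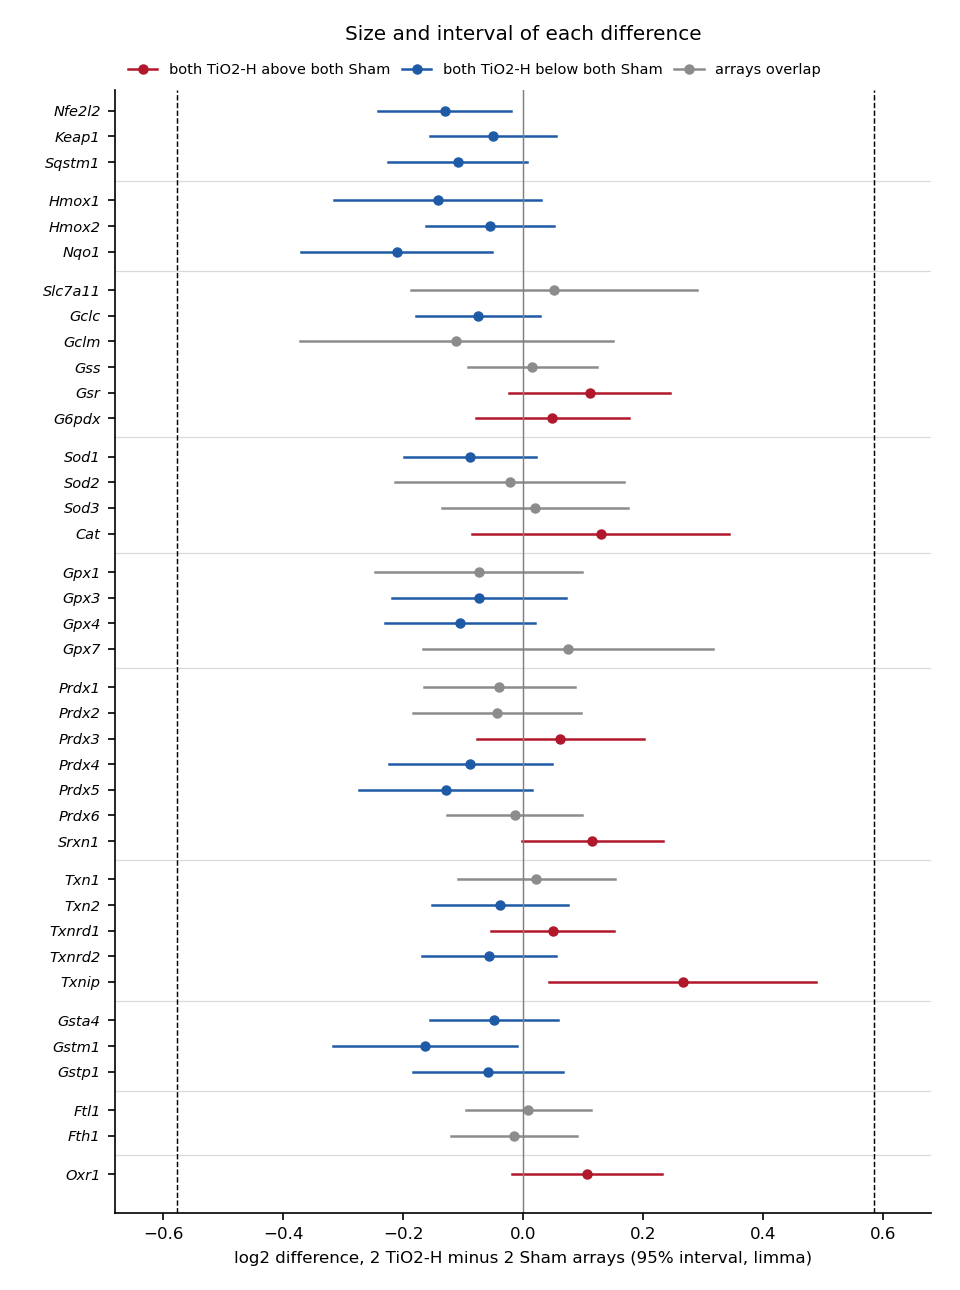
Difference between the 2 TiO2-H and the 2 Sham arrays for each of the 38 genes, on the log2 scale, with its 95% interval from limma (red, both TiO2-H arrays above both Sham arrays; blue, both below; grey, overlapping). The dashed lines mark 1.5-fold and 0.67-fold, and no interval reaches either. The colors follow the 75th percentile scaling, without which 25 genes lay above and 1 below.

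The enzymes that remove superoxide and hydrogen peroxide did not share a direction. Sod1 (NM_011434), the cytosolic superoxide dismutase, had relative signals of 75.2 and 73.3 in Sham and 69.5 and 70.2 in TiO2-H, with a difference of -0.09 (-0.20 to 0.02). Catalase, Cat (NM_009804), which breaks down hydrogen peroxide in peroxisomes, had 3.13 and 3.47 in Sham and 3.50 and 3.70 in TiO2-H. The Cat arrays did not overlap, but the gap between the 2 Sham arrays, 0.15, was wider than the difference of 0.13 (-0.09 to 0.34). The mitochondrial Sod2 ranged from 18.1 to 19.7 and the extracellular Sod3 from 0.635 to 0.677, and both overlapped between exposures.

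Glutathione peroxidases reduce peroxides at the expense of glutathione, and Gpx4 acts on lipid peroxides in membranes. Gpx4 (NM_001037741) had relative signals of 43.3 and 41.6 in Sham and 39.1 and 39.8 in TiO2-H, and Gpx3 (NM_008161), the secreted form, had 0.897 and 0.851 in Sham and 0.846 and 0.815 in TiO2-H. Both lay below Sham without overlap, with differences of -0.10 (-0.23 to 0.02) and -0.07 (-0.22 to 0.07). Gpx1 ranged from 23.6 to 26.2 and Gpx7 from 0.842 to 0.976, with overlap between exposures. Limma adjusted p of the 4 peroxidases lay between 0.323 and 0.640.

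Peroxiredoxins are abundant thiol peroxidases, and sulfiredoxin, Srxn1, restores them after overoxidation. Srxn1 (NM_029688), an Nrf2 target with the core in its promoter window, had relative signals of 4.14 in Sham male, 4.29 in Sham female, 4.54 in the pool labelled TiO2-H male and 4.59 in the pool labelled TiO2-H female. Both TiO2-H arrays were above both Sham arrays, opposite to Hmox1 and Nqo1. The difference was 0.12 (-0.003 to 0.23), with a limma adjusted p of 0.293.

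Prdx5 (NM_012021), found in mitochondria, peroxisomes and cytosol, had 19.9 and 19.5 in Sham and 18.6 and 17.5 in TiO2-H. Prdx4 (NM_016764), of the endoplasmic reticulum, had 3.99 and 3.77 in Sham and 3.67 and 3.63 in TiO2-H. Both lay below Sham without overlap, with differences of -0.13 (-0.27 to 0.02) and -0.09 (-0.22 to 0.05). The mitochondrial Prdx3 (NM_007452) had 3.01 and 2.95 in Sham and 3.03 and 3.20 in TiO2-H, with a difference of 0.06 (-0.08 to 0.20).

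Prdx1, Prdx2 and Prdx6 overlapped between exposures, with ranges of 13.7 to 14.5, 59.8 to 64.0 and 20.7 to 21.3. The second probe of Prdx1 had a difference of 0.08, against -0.04 for the first. Of the other 3 probes of Prdx6, the dimmest did not clear background on any array and is given no value. The other two lay below Sham without overlap, with 7.97 and 7.99 in Sham and 7.24 and 6.89 in TiO2-H (a difference of -0.18) and with 5.09 and 4.63 in Sham and 4.49 and 4.28 in TiO2-H (-0.15), so that the probes of Prdx6 disagree. For all 7 genes of the group the limma adjusted p was between 0.293 and 0.857.

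Thioredoxin is reduced by thioredoxin reductase with NADPH, and is bound and inhibited by Txnip, the thioredoxin-interacting protein, which also restrains glucose uptake. Txnip (NM_001009935) had the largest difference of the 38 genes. Its relative signal was 2.59 in Sham male, 2.33 in Sham female, 3.06 in the pool labelled TiO2-H male and 2.86 in the pool labelled TiO2-H female. All TiO2-H values exceeded all Sham values, although the Sham arrays themselves differed by 0.15 on the log2 scale. The difference was 0.27 (0.04 to 0.49), a level 20.2% higher, with an unadjusted p of 0.0307 and a limma adjusted p of 0.264.

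The second probe of Txnip was read on other spots of the same arrays and had 0.479 and 0.424 in Sham and 0.604 and 0.534 in TiO2-H. It ran the same way, with a difference of 0.33. Without scaling the difference of the first probe was 0.38. Expression of Txnip is known to follow glucose and is not a classical mark of Nrf2 activity.

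Txnrd1 (NM_001042523), the cytosolic reductase and an Nrf2 target, had 10.3 in Sham male, 10.4 in Sham female and 10.7 on both TiO2-H arrays, a difference of 0.05 (-0.05 to 0.15). Txnrd2 (NM_013711), its mitochondrial counterpart, had 6.52 and 6.37 in Sham and 6.14 and 6.25 in TiO2-H, and Txn2 (NM_019913), the mitochondrial thioredoxin, had 18.1 and 17.6 in Sham and 17.3 and 17.4 in TiO2-H. Both mitochondrial genes were below Sham without overlap, by differences of -0.06 and -0.04, and above 0 without scaling. The cytosolic Txn1 ranged from 25.2 to 26.5 with overlap.

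Glutathione S-transferases couple glutathione to electrophiles. Gstm1 (NM_010358) had relative signals of 12.4 in Sham male, 12.6 in Sham female, 11.5 in the pool labelled TiO2-H male and 10.8 in the pool labelled TiO2-H female. The TiO2-H arrays were the lower ones, with a difference of -0.16 (-0.32 to -0.01), an unadjusted p of 0.0425 and a limma adjusted p of 0.279. Gsta4 (NM_010357), which handles the lipid peroxidation product hydroxynonenal, had 0.565 and 0.568 in Sham and 0.542 and 0.554 in TiO2-H. Gstp1 (NM_013541) had 13.3 and 13.6 in Sham and 12.7 and 13.2 in TiO2-H. The differences of Gsta4 and Gstp1, -0.05 (-0.16 to 0.06) and -0.06 (-0.18 to 0.07), did not pass the test (limma adjusted p of 0.510 and 0.496).

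The ferritin subunits, which store iron in a safe form, and Oxr1, which protects neurons from oxidative damage, complete the 38 genes. Ftl1 ranged from 223 to 227 and Fth1 from 146 to 150, with overlap and with differences of 0.009 and -0.01. A second probe of Ftl1 had a difference of -0.05. Oxr1 (NM_130885) had 3.40 and 3.26 in Sham and 3.55 and 3.61 in TiO2-H, without overlap, and a difference of 0.11 (-0.02 to 0.23) with a limma adjusted p of 0.320.

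The groups by role were then set side by side. All 3 genes of Nrf2 and its regulators, all 3 of the haem oxygenases and quinone reductase and all 3 glutathione S-transferases lay below Sham without overlap. These 9 genes were put together after their values were seen, and so carry no test. Without scaling only 4 of the 9 stayed below 0. All 9 lay below the median of all genes, 0.003, which follows from their choice as genes below Sham. Leaving out the scaling cannot change this position, so it adds no support. The 9 also lay below that median with quantile or normexp values of the same arrays. The 4 glutathione peroxidases had 2 below and 0 above, the 2 ferritin subunits overlapped, and Oxr1 stood alone above. The remaining groups held genes on both sides. The 7 genes with the core in their promoter window ran from -0.13 (Nfe2l2) to 0.12 (Srxn1) with a median of -0.04, against -0.05 for the 24 genes without it.

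**Figure D3:**
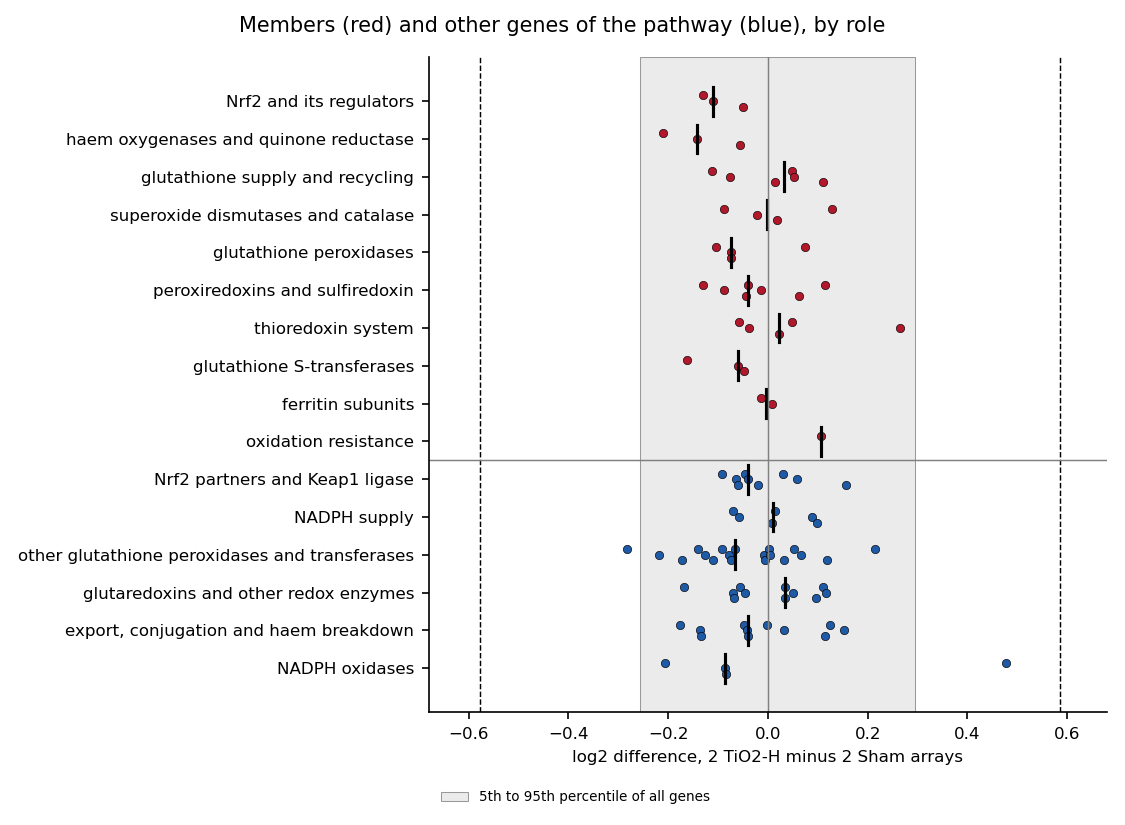
Log2 difference between the 2 TiO2-H and the 2 Sham arrays for each gene, by role (red, the 38 genes; blue, other genes of the pathway; black bars, median of the group; shading, 5th to 95th percentile of all genes; dashed lines, 1.5-fold and 0.67-fold). The 38 genes lie between -0.21 and 0.27 and Nox4, at 0.48, lies farthest from 0. On the unscaled values the median of all genes was 0.12 higher in TiO2-H.

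Of 67 other genes of the pathway, 60 were tested and 0 had a limma adjusted p under 0.05. By unadjusted p under 0.05 there were 4 above and 6 below Sham (17.3% of all genes in either direction), and without overlap there were 13 above (28.1% of all genes) and 18 below (27.5%), with a median difference of -0.04. These counts are near those over all genes. The 6 and the 18 below include dim genes, named here after their values were seen. Msrb3 and Duox1 cleared background on 1 array and Ggt1 on 2, and dim values were raised to the lowest signal well above background. Before that step the relative signal of Duox1 was higher in TiO2-H (0.0340 and 0.0332) than in Sham (0.0264 and 0.0272), so its count as below comes from that step. Msrb3 overlapped before it, with 0.0377 and 0.0325 in Sham and 0.0280 and 0.0350 in TiO2-H. Its count as below without overlap thus also comes from that step, while Ggt1 lay below without overlap before it too. None that was well above background on all 4 arrays passed a fold threshold under either sex label. The small Maf proteins, the Bach repressors, the ligase subunits that work with Keap1 and the Nrf2 relatives Nfe2l1 and Nfe2l3 had differences between -0.09 and 0.16 over 9 genes. The 6 genes of NADPH supply lay between -0.07 and 0.10.

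Among the other glutathione peroxidases and transferases, 2 of 19 were above (28.1% of all genes) and 8 below Sham (27.5%) without overlap. These include the genes that neighbour Gstm1 in sequence, which are named here after their values were seen. Gstm3 had relative signals of 1.33 and 1.38 in Sham and 1.13 and 1.099 in TiO2-H, a difference of -0.28 (-0.41 to -0.16) with an unadjusted p of 0.00402 and a limma adjusted p of 0.260. Gstm4 had 0.930 and 0.868 in Sham and 0.788 and 0.758 in TiO2-H, a difference of -0.22. Over Gstm1 to Gstm7, all 7 lay below Sham without overlap, between -0.28 and -0.07. Without scaling 2 of the 7 still did, and Gstm5 and Gstm6 were above 0 at 0.05 and 0.04. These values are of the brightest probes. The dimmest probe of Gstm2 overlapped, with a difference of -0.002. A dimmer probe of Gstm3 cleared background on the array labelled TiO2-H male only and is given no value. The other dimmer Gstm probes lay below Sham without overlap. All 7 genes lay below the median of all genes, which follows from their lying below Sham. Leaving out the scaling cannot change this, so it adds no support. The 7 lay below that median with quantile normalization too. The Gstm mRNAs are closely similar, so that a probe may read more than 1 of them, and they do not count as separate measurements.

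Nox4, an NADPH oxidase that makes hydrogen peroxide, was likewise named after its values were seen. Its relative signal was 0.0727 and 0.0641 in Sham and 0.101 and 0.0898 in TiO2-H. The difference of 0.48 (0.19 to 0.77) was farther from 0 than that of any of the 38 genes, with an unadjusted p of 0.0120 and a limma adjusted p of 0.260. This probe was itself dim, with processed signals of 50.9 to 87.1. The lowest signals well above background were 23.3 to 31.7 on the 4 arrays. A second probe of Nox4 cleared background on no array and is given no value.

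Within each sex label, a single TiO2-H array was set against a single Sham array, with no replicate and so no test. The noncoding RNA Xist, of the inactive X chromosome, cleared background in Sham female (relative signal 0.347) and in the pool labelled TiO2-H male (0.400), and not in the others. The Y-linked Eif2s3y had 4.36 in Sham male, 0.528 in Sham female and 4.99 in the pool labelled TiO2-H female, but did not clear background on the array labelled TiO2-H male. Both thus go against the sex labels of the TiO2-H arrays, which are therefore named by label only. In Sham female Eif2s3y and the Y-linked Ddx3y (0.179, against 1.76 in Sham male) also cleared background, which goes against a purely female pool. The comparison of both TiO2-H with both Sham arrays above does not use these labels.

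On the arrays labelled male, none of the 38 genes reached 1.5-fold (2.05% of all genes) or 0.67-fold (1.85%). On the arrays labelled female none reached 1.5-fold (1.59%) or 0.67-fold (1.97%). Among the 14633 genes that, like the 38, were well above background on all 4 arrays, the shares were 0.82% and 0.622% on the arrays labelled male and 0.752% and 0.806% on those labelled female. At these shares fewer than 1 of 38 genes would lie past a threshold, so that the counts of 0 are near this background. The 38 genes lay between -0.25 (Nqo1) and 0.24 (Txnip) on the arrays labelled male, and between -0.25 (Gclm) and 0.29 (Txnip) on those labelled female.

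The same genes differed between the 2 Sham arrays by -0.15 to 0.15 and between the 2 TiO2-H arrays by -0.20 to 0.15. Under both labels 11 genes were above 0 and 19 below 0, and 8 had opposite signs. Among these 8, Gpx7 had -0.06 on the arrays labelled male and 0.21 on those labelled female, Slc7a11 had -0.08 and 0.19, and Gclm had 0.03 and -0.25. The difference between the labels was not tested, since each label holds 1 array per exposure.

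**Figure D4:**
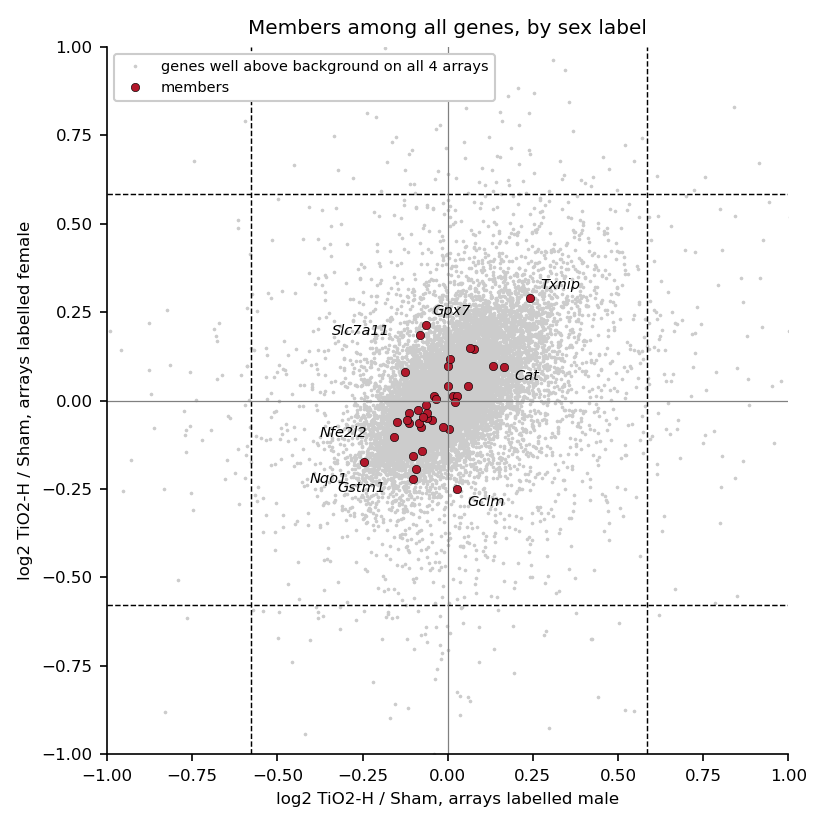
Log2 ratio of the TiO2-H array to the Sham array on the arrays labelled male (horizontal) and labelled female (vertical) for the 38 genes (red) and for 14633 genes well above background on all 4 arrays (grey); 126 of the grey genes lie outside the axes. The dashed lines mark 1.5-fold and 0.67-fold. All 38 genes lie inside the central square, with Txnip at its upper right and Nqo1 at its lower left.

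Markers of the cell types in whole brain were read on the same scale. All 7 neuronal markers were well above background on every array, and the liver markers Alb, Apoa1 and Ahsg on none. The remaining liver marker, Afp, was well above background on all 4 arrays and lay below Sham without overlap, by -0.33. Counts without overlap are given here against 28.1% of all genes above and 27.5% below. Of the 7 neuronal markers 4 were above Sham and 1 below, and of the 6 markers of radial glia and astrocytes 2 were above and 2 below. Of the 6 markers of the oligodendrocyte lineage 3 were above and 0 below, of the 5 endothelial markers 2 and 1, of the 5 markers of choroid plexus 2 and 1, and of the 5 markers of meninges and fibroblasts 4 and 1. The 5 measured markers of microglia and macrophages were all above, by 0.07 to 0.36, while the dimmer probes of Csf1r had differences of -0.05 and 0.007 against 0.15 for its brightest probe. Of 5 measured markers of red blood cells 2 were below and 0 above. Of the 4 markers of skeletal muscle 1 was below and 0 above. The 1 below was Ckm (-0.75, -1.81 to 0.30), which cleared background on 1 array only. None of these markers had a limma adjusted p under 0.05. The counts use the brightest probe, and dimmer probes of some markers differed. Dimmer probes of Kdr (endothelium), Aqp4 and Gfap (astrocytes) lay above Sham without overlap, by 0.35, 0.28 and 0.18, against -0.09, 0.05 and -0.10 for the brightest. A dimmer probe of the neuronal Rbfox3 lay below without overlap, by -0.19 against -0.02.

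Sums of relative signal weight each marker by the brightness of its probe. The microglial sum was 11.9 to 12.2 in Sham and 13.2 to 13.3 in TiO2-H, most of it from Csf1r (8.01 to 8.41 in Sham and 9.05 to 9.14 in TiO2-H). The red blood cell sum was 61.6 to 64.3 in Sham and 53.2 to 53.3 in TiO2-H, nearly all of it from Hba-a1, a haemoglobin chain (59.0 to 61.5 in Sham and 50.5 to 50.8 in TiO2-H). The neuronal sum was 381 to 382 in Sham and 381 to 394 in TiO2-H, most of it from Stmn2 and Tubb3, whose own values were not above Sham without overlap. The part of these cells in the differences of the 38 genes was not tested. In whole tissue, fewer cells of a type and less RNA per cell cannot be told apart.

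A single slide carried the 4 arrays, the Sham arrays in one row and the TiO2-H arrays in the other, so that row and exposure cannot be told apart. Between 56.2% and 61.2% of spots were well above background, no spot was saturated, and the 75th percentile of the signal was 795 to 808 in Sham and 867 to 870 in TiO2-H. Among 399 probes spotted 10 times, the repeat spots on an array had a median SD of 0.06 to 0.07 in log2 signal, which is above the difference of several of the 38 genes.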

How the data were processed

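The authors deposited intensity values for 4 one-color arrays, as scanner output and as 1 joint table. Feature Extraction 10.10.1.1 had subtracted the local background without scaling between arrays, and the table equalled the processed signal for all 59305 spots that are not controls. The log2 signal minus the log2 of the array's 75th percentile was used, with outlier spots left out and spots of a probe averaged. Accessions were named through a RefSeq table (GRCm38.p6), which matched 27235 of 55681 probes (48.9%) to 20660 genes, and no gene positions were taken from it because the array annotation is of an older build. The brightest probe stood for a gene. Genes well above background on at least 1 array were kept, and a dim value was set to the higher of itself and the lowest signal well above background on that array.

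The exposures were compared in limma 3.58.1 (R 4.3.3) over the 4 arrays, without covariates, and p-values were adjusted by Benjamini-Hochberg over 16150 genes. Within a sex label the thresholds of the study, 1.5-fold and 0.67-fold, were applied without a test. Python 3.11.15, numpy 2.4.6, pandas 2.3.3 and matplotlib 3.10.9 served the other steps, and the fit was tested on simulated data. All 38 genes are named, with the value on every array for those whose exposures did not overlap and for the main Nrf2 targets, and other pathway genes only where they passed a fold threshold, with later exceptions marked. Members and lists were chosen with earlier results of these data known. Alternatives covered the scaling, background correction, filter, floor, choice of probe, outlier spots, sex as a block and each array left out. The number of arrays limits the precision.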

Additional observations from a re-analysis of the deposited data

How the results depend on the processing

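No antioxidant or Nrf2 response gene had a limma adjusted p under 0.05 under any alternative, with a lowest adjusted p between 0.0967 (no scaling) and 0.459 (without the array labelled TiO2-H female), and none passed a fold threshold under either sex label. The count of 4 genes at an unadjusted p under 0.05 became 10 without scaling, 8 with normexp, 2 without the filter, 2 with sex as labelled as a block, 0 with sex crossed within TiO2-H as a block, and 0 to 2 with 1 array left out (0 without the Sham female array, 1 without the Sham male array or without the array labelled TiO2-H female, 2 without the array labelled TiO2-H male). Of the 4 genes, Nfe2l2 lost its call with any array left out, while Txnip kept an unadjusted p of 0.0260 without the Sham male array, Nqo1 of 0.0236 without the array labelled TiO2-H female and Gstm1 of 0.0363 without the array labelled TiO2-H male, where Hmox1 was the other call (0.0414). The counts without overlap, 8 above and 17 below, became 25 and 1 without scaling. With 1 array left out they were 10 to 13 above and 19 to 22 below, where fewer arrays make overlap less likely. The median difference of -0.042 was 0.074 without scaling, -0.023 with quantile normalization and between -0.046 (without the Sham female array) and -0.027 (without the Sham male array) with 1 array left out. The share of promoters with the element was 22.6% and became 38.7% with the shorter core, while that over all genes went from 13.99% to 45.0%.

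Without scaling, 19 of the 38 genes changed sign, to 0.066 (Keap1), 0.0067 (Sqstm1), 0.061 (Hmox2), 0.040 (Gclc), 0.0050 (Gclm), 0.028 (Sod1), 0.094 (Sod2), 0.042 (Gpx1), 0.043 (Gpx3), 0.011 (Gpx4), 0.077 (Prdx1), 0.072 (Prdx2), 0.028 (Prdx4), 0.10 (Prdx6), 0.077 (Txn2), 0.059 (Txnrd2), 0.068 (Gsta4), 0.057 (Gstp1) and 0.10 (Fth1). Leaving out the scaling adds the same 0.12 to every difference, so that values which change sign lie below 0.12 by construction. Quantile normalization turned Prdx2 (0.00018), Prdx6 (0.0037) and Fth1 (0.025), normexp turned Sod3 (-0.0017), and the mean of all probes turned Prdx1 (0.018) and Ftl1 (-0.019). Leaving out the floor turned none. The use of every identifier as its own feature was chosen after seeing the data. The mean signals for normexp were not used here, and median signals took their place. Sex is the only label that pairs the exposures, and its 2 blocked fits are given above.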
